A study of Mus musculus with 40 samples.

Results

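The comparison described here set the cortex of mice that had both memantine and high-frequency head impact (HF-HI) against the cortex of mice that had neither. Its members were the 10 memantine HF-HI libraries and the 10 saline sham libraries, 20 of the 40 libraries in the series, chosen by their treatment labels alone. All 40 came from the cortex of male C57BL/6 mice aged 12 weeks, with tissue taken 24 h after the end of the repeated impacts or of the sham procedure. Each mouse was injected 1 h before each session, with memantine or with saline, so the saline sham mice were free of drug and impact but had the injections, the handling and the anaesthesia. The other groups were saline HF-HI and memantine sham, with 10 libraries each (the series' design text gives 4 samples a group, and n here counts the libraries listed), and are used only to place the values of the members. Since drug and impact both differed between the members, this contrast alone cannot tell them apart. By construction it is the impact difference under saline plus the drug difference after impact.

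Memantine blocks NMDA-type glutamate receptors, the calcium-permeable channels that couple glutamate release to changes in synaptic strength and to transcription in the nucleus. AMPA-type receptors carry most fast excitatory current, and genes such as Arc, Junb, Nptx2 and Vgf are transcribed in response to neuronal activity. The circadian clock runs in cortical cells as a loop in which ARNTL and CLOCK activate the Per and Cry repressor genes, the nuclear receptors Nr1d1 and Nr1d2, and the PAR-domain factors Dbp, Tef and Hlf, which pass the rhythm to other genes.

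The table held 6831 RefSeq transcripts of 5849 gene symbols, and the values given below are normalised read counts, obtained by undoing the variance-stabilising transformation. The summed reads ran from 13352944 to 17411169 in saline sham and from 13825466 to 17529644 in memantine HF-HI. Neurod6, a marker of cortical excitatory neurons, is also in the hippocampal list below. It ran from 493 to 837 normalised counts in saline sham (median 633) and from 546 to 836 in memantine HF-HI (median 721). The log2 count change of 0.12 did not pass (limma p = 0.18). Markers of the striatum, a region next to the cortex, summed to 19683 to 33605 in saline sham and 17553 to 30388 in memantine HF-HI. None of the 40 transcripts in the wider striatal list passed limma at an unadjusted p under 0.05, and their median log2 count change was -0.04. Ttr, a choroid plexus marker, ranged from 74.5 to 15798 in saline sham and from 172 to 15752 in memantine HF-HI.

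Memantine HF-HI cortex differed from saline sham cortex at few transcripts, and by small amounts. At an unadjusted p under 0.05 in limma, 538 of 6831 transcripts passed (7.88%), where chance gives 342, with 260 higher (3.81%) and 278 lower (4.07%) in memantine HF-HI. Their median absolute log2 count change was 0.12, against 0.04 over all transcripts. After Benjamini-Hochberg adjustment over all transcripts, 9 passed at an adjusted limma p under 0.1 (0.132%), of which 6 were higher and 3 lower. The other contrasts of the same fit, which share libraries with this one, gave 651 transcripts at the unadjusted threshold for impact under saline, 513 for the drug in sham mice, 315 for impact under memantine and 267 for the drug after impact. Over all transcripts the mean distance between a memantine HF-HI and a saline sham library was 15.82, beside mean distances of 15.82 within memantine HF-HI and 15.75 within saline sham. The excess of 0.0300 was within the spread between libraries (one-sided permutation test, p = 0.307), and 5 of 10 memantine HF-HI and 7 of 10 saline sham libraries lay nearer to their own group on average. A transcript that missed the thresholds is not shown to be equal in the groups.

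The clearest difference was in Dbp (NM_016974, chromosome 7, 45705100 to 45710203 in mm10), a PAR-domain transcription factor of the clock output. Its normalised count ran from 868 to 1132 in saline sham, with a median of 1011, and from 1142 to 1414 in memantine HF-HI, with a median of 1325. All 10 memantine HF-HI libraries therefore lay above all 10 saline sham libraries, and Dbp was the single transcript in the table whose groups did not overlap (0.0146%). The mean rose from 1006 ± 110 to 1295 ± 94.5 (SD, n = 10 each), a log2 count change of 0.36, or 0.16 ± 0.028 (SE) on the deposited scale with a 95% interval of 0.099 to 0.21 (adjusted limma p = 0.0143). Its two-sided permutation p was 1e-05, the smallest that the resamples can give. Mean Dbp was 1134 in saline HF-HI and 1388 in memantine sham, so the untreated sham group was the lowest of the 4 and the drug-treated sham group the highest.

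The other 5 risers passed at smaller log2 changes and with overlapping groups. Vps13a (NM_173028, chromosome 19, 16615366 to 16781071) encodes a lipid transfer protein at contacts between membranes. It ran from 4762 to 5508 in saline sham (median 5001) and from 5265 to 6044 in memantine HF-HI (median 5732). The log2 count change was 0.17, the adjusted limma p 0.0145, and 10 of 10 memantine HF-HI libraries were above the saline sham mean. Cc2d2a (NM_172274, chromosome 5, 43662374 to 43740975), a protein of the ciliary transition zone, ran from 820 to 1010 in saline sham (median 926) and from 952 to 1136 in memantine HF-HI (median 1019). It rose by a log2 count change of 0.17 (adjusted limma p = 0.0272), and again 10 of 10 libraries were above the saline sham mean. Tmem245 (NM_175518, chromosome 4, 56876003 to 56947455), a predicted membrane protein, went from 1931 to 2115 in saline sham (median 1993) to 2064 to 2271 in memantine HF-HI (median 2171). Its log2 count change was 0.11 (adjusted limma p = 0.0412), and 8 of 10 memantine HF-HI libraries were above all saline sham libraries.

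Pdk1 (NM_172665, chromosome 2, 71873215 to 71903858), a kinase that inhibits pyruvate dehydrogenase and so holds pyruvate back from the citric acid cycle, ran from 1386 to 1562 in saline sham (median 1461) and from 1549 to 1778 in memantine HF-HI (median 1601). It rose by a log2 count change of 0.13 (adjusted limma p = 0.0436), with 10 of 10 libraries above the saline sham mean. Nr1d2 (NM_011584, chromosome 14, 18204056 to 18239106), a nuclear receptor that represses Arntl, ran from 3376 to 4068 in saline sham (median 3898) and from 3815 to 4511 in memantine HF-HI (median 4303). Its log2 count change was 0.15, with an adjusted limma p of 0.0976, close to the threshold. When each of the 20 libraries was left out in turn, Nr1d2 kept an adjusted p under 0.1 in 7, those without saline sham replicate 1, 4, 7 or 10 or memantine HF-HI replicate 3, 7 or 10, and reached 0.239 in the others. Pdk1 passed in 13 of 20, with an adjusted p of up to 0.137 without memantine HF-HI replicate 2, 4 or 9 or saline sham replicate 2, 3, 5 or 6. Tmem245 passed in 16 of 20, with up to 0.112 without memantine HF-HI replicate 4 or saline sham replicate 2, 3 or 6, and Dbp, Vps13a and Cc2d2a passed in 20 of 20. In a fit of the 20 libraries alone, Cc2d2a had an adjusted limma p of 0.379, Pdk1 0.171 and Nr1d2 0.289.

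Of the 3 transcripts that fell, Dio2 (NM_010050, chromosome 12, 90724552 to 90739038) encodes the deiodinase with which astrocytes make active thyroid hormone. Its count ran from 1953 to 2821 in saline sham (median 2336) and from 1667 to 2010 in memantine HF-HI (median 1928), and 10 of 10 memantine HF-HI libraries were below the saline sham mean. The fall was -0.32 in log2 counts, or -0.17 ± 0.034 (SE) on the deposited scale (adjusted limma p = 0.0272). Nptx2 (NM_016789, chromosome 5, 144545887 to 144557478), an activity-induced pentraxin that gathers AMPA receptors at synapses, ran from 511 to 833 in saline sham (median 688) and from 363 to 609 in memantine HF-HI (median 526). Its log2 count change of -0.44 was the largest of the 9 (adjusted limma p = 0.0412), and 10 of 10 libraries were below the saline sham mean. The third was Bcl2l1 (NM_009743, chromosome 2, 152758732 to 152833803), whose gene encodes a BCL2-family regulator of cell death. It ran from 581 to 696 in saline sham (median 668) and from 384 to 626 in memantine HF-HI (median 529), a log2 count change of -0.35 (adjusted limma p = 0.0989). Its other transcript in the table, NM_001289716, averaged 557 ± 73.2 in saline sham and 565 ± 70.0 in memantine HF-HI (p = 0.824), and the 2 transcripts share reads. Bcl2l1 NM_009743 passed in 4 of the 20 fits that left out 1 library, those without memantine HF-HI replicate 5, 7 or 9 or saline sham replicate 1, and reached an adjusted p of 0.239 in the others. Nptx2 missed the threshold without saline sham replicate 2 (0.104), and Dio2 passed in 20 of 20. In a fit of the 20 libraries alone the adjusted limma p was 0.171 for Nptx2 and 0.154 for Bcl2l1.

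**Figure D1:**
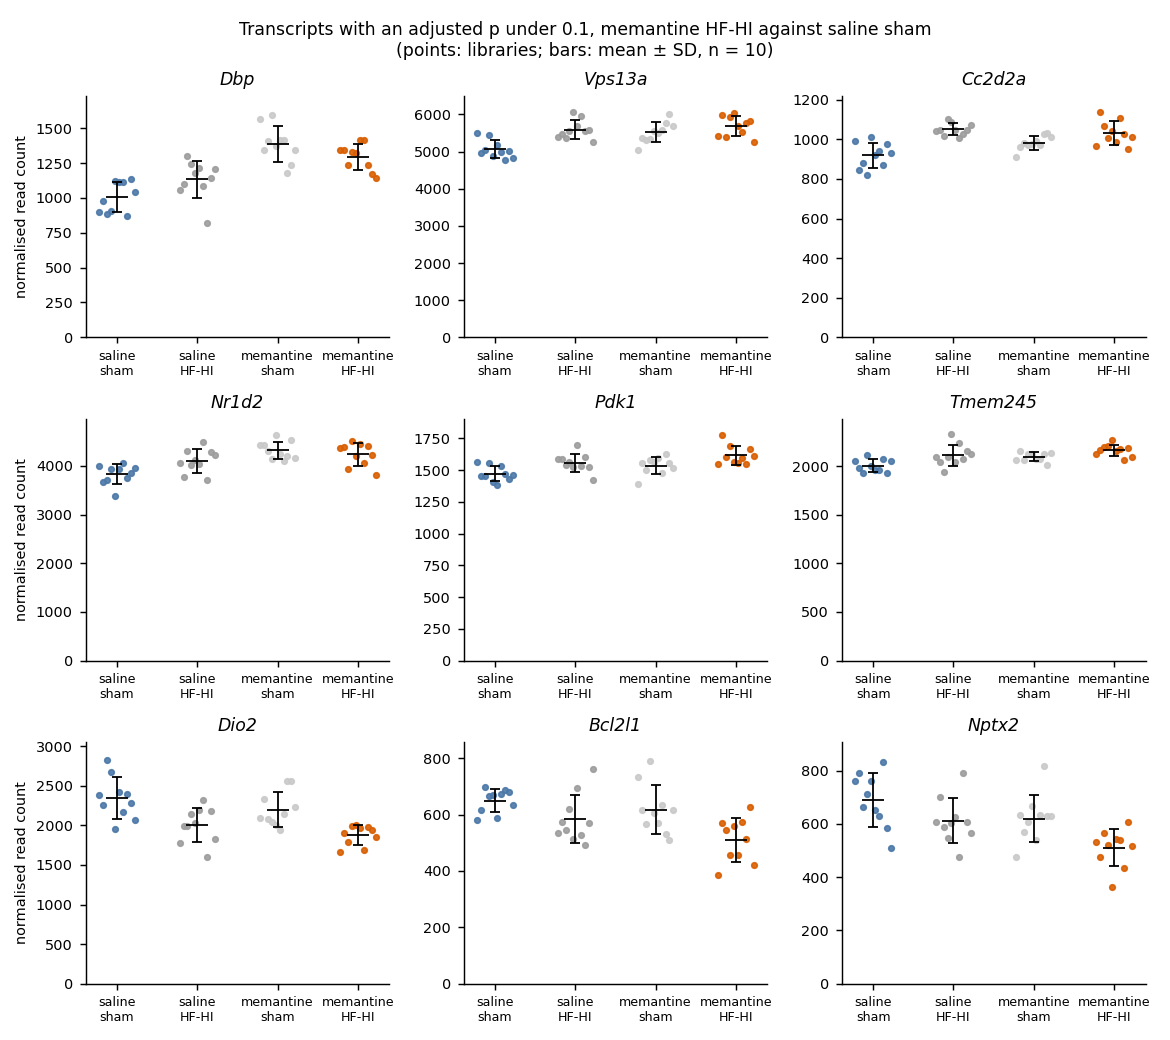
Normalised read counts (vertical axes, from 0) of the 9 transcripts with an adjusted p under 0.1, by library in the 4 groups (horizontal axes). Points are libraries and bars are the mean ± SD with n = 10. The 10 memantine HF-HI points of Dbp lie above the highest saline sham point of 1132, and the other panels overlap.

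The means of the remaining groups placed these 9 transcripts in different ways. At an unadjusted limma p under 0.05, 7 of the 9 also differed between saline HF-HI and saline sham, 6 between memantine sham and saline sham, 5 between memantine HF-HI and memantine sham, and 3 between memantine HF-HI and saline HF-HI. Over all transcripts the shares in that order were 9.53%, 7.51%, 4.61% and 3.91%. These contrasts share libraries, so the counts are not independent. The 9 were chosen on memantine HF-HI against saline sham, so counts for contrasts with either group can be raised by that choice. The 3 that differed between the impact groups were Dbp (p = 0.00425), Nptx2 (p = 0.00902) and Bcl2l1 NM_009743 (p = 0.0285), and none of them passed there after adjustment. For Vps13a the untreated sham mean was 5065, beside 5590 after impact alone, 5518 with the drug alone and 5686 with both. For Nptx2 they were 690, 611, 620 and 510 in the same order, so each single treatment lay between the untreated and the doubly treated group. For Dio2 they were 2344, 2006, 2199 and 1881, with both impact groups below both sham groups. The interaction of drug and impact passed at an adjusted p under 0.1 for 0 of 6831 transcripts in limma, and for 255 (3.73%) at an unadjusted p under 0.05. Among these 255 were Dbp (p = 0.00563), Cc2d2a (p = 0.0114), Nr1d2 (p = 0.0124) and Vps13a (p = 0.0307), and the rest of the 9 did not pass. After adjustment no difference of the impact effect between drug arms was resolved.

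Of the 24 clock transcripts of 19 symbols, 8 were higher and 2 lower at the unadjusted threshold, or 41.7% beside 7.88% over all transcripts, and 2 of them, Dbp and Nr1d2, passed after adjustment. The median log2 count change of the list was 0.11, with 17 transcripts above 0 and 7 below, while the median over all transcripts was 0.00065. Of the 19 gene sums of the list, 8 were higher and 2 lower (52.6% beside 8.36% over all gene sums). Among the PAR-domain factors, Hlf (NM_172563, chromosome 11, 90336535 to 90390917) ran from 3230 to 4301 in saline sham (median 3518) and from 3727 to 4838 in memantine HF-HI (median 4347). It had a log2 count change of 0.23 and an adjusted limma p of 0.146, with 10 of 10 memantine HF-HI libraries above the saline sham mean. Tef has 2 transcripts in the table, whose own changes did not pass (p = 0.211 for NM_017376 and 0.349 for NM_153484). Their sum ran from 5887 to 7235 in saline sham (median 6475) and from 6450 to 8354 in memantine HF-HI (median 7638). The Tef sum rose by a log2 count change of 0.20 (adjusted limma p = 0.0257 over gene sums). In a fit of the 20 libraries alone the adjusted p of the Tef sum was 0.261. The sum was steadier across libraries than its parts, with an SD of 455 in saline sham beside 997 and 1095 for the single transcripts.

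Of the feedback genes, Per2 (NM_011066, chromosome 1, 91415977 to 91459351), a repressor of the loop, ran from 970 to 1624 in saline sham (median 1130) and from 1034 to 1711 in memantine HF-HI (median 1620). The log2 count change was 0.37 (p = 0.00136, adjusted limma p = 0.284), and 9 of 10 libraries were above the saline sham mean. Per1 (NM_011065) had a log2 count change of 0.32 (p = 0.0406), Cry2 (NM_009963), a further repressor, one of 0.13 (p = 0.00836), and Bhlhe40 (NM_011498), which competes with the ARNTL complex for its sites, one of 0.21 (p = 0.0323). Arntl (NM_007489, chromosome 7, 113178471 to 113314126), the activator of the loop, was lower. It ran from 743 to 1027 in saline sham (median 823) and from 673 to 833 in memantine HF-HI (median 763), a log2 count change of -0.18 (p = 0.0029), and 10 of 10 libraries were below the saline sham mean. Npas2 (p = 0.0832), Nr1d1 (p = 0.942) and both Per3 transcripts (p = 0.602 and 0.699) did not pass. The 2 Csnk1d transcripts, of a kinase that phosphorylates PER proteins, passed in opposite directions, with log2 count changes of 0.20 and -0.22, while their sum changed by 0.01 (p = 0.754).

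Mean Per2 was 1206 in untreated sham mice, 1366 after impact alone, 1537 with the drug alone and 1556 with both, and in that order mean Arntl was 848, 781, 723 and 750. For the sum of Tef the means were 6498, 6950, 7614 and 7443. In all 3 the untreated sham group stood at one end, and the groups with memantine stood further from it than saline HF-HI did. All 3 had passed between memantine HF-HI and saline sham at the unadjusted threshold, so a gap between those groups was already given. Of genes that had not passed, mean Nr1d1 was 828, 824, 928 and 833 in the same order. The means of the Per3 sum were 1233, 1305, 1495 and 1314. Memantine HF-HI differed from saline HF-HI at an unadjusted p under 0.05 for the Tef sum (p = 0.0227) and not for Per2 (p = 0.0832) or Arntl (p = 0.3). The hour of sampling is not in the labels, and its part in the clock values was not tested.

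The sequence before the start site of 3 clock genes that were higher is shown so that the elements through which the loop acts can be looked for. In RefSeq promoters of build GRCm38.p6, 250 bases upstream of each start were searched for the E-box CACGTG, the site of ARNTL complexes. AGGTCA, a half-site of the ROR element to which Nr1d1 and Nr1d2 bind, was also searched for, each motif on both strands. These motifs do not overlap each other, and a half-site is only a part of such an element. The E-box was found in 6.02% of 32851 promoters and AGGTCA in 14.0%. Capitals mark the matches in the sequences below, each given 5′ to 3′ on the strand of its gene, for Tef on the plus strand at chr15:81802423-81802672, Nr1d2 on the minus strand at chr14:18239107-18239356 and Hlf on the minus strand at chr11:90390918-90391167.
Tef: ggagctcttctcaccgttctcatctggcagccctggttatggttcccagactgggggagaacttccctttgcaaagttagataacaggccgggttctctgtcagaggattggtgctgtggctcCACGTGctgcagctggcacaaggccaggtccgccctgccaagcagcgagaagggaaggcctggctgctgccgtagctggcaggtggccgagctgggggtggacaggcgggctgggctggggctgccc
Nr1d2: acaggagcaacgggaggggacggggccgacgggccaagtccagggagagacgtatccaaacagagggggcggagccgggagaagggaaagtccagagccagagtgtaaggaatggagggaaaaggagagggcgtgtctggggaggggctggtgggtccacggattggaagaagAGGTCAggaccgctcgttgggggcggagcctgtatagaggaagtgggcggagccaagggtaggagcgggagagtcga
Hlf: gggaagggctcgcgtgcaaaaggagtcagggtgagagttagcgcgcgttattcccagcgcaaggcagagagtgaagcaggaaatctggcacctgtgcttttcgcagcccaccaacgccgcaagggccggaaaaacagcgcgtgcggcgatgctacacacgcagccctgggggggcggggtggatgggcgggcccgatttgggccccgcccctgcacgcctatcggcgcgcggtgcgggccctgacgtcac
The window of Tef held 1 E-box, that of Nr1d2 held 1 AGGTCA, and that of Hlf held neither. Among the other clock windows searched, those of Dbp, Cry2 and Arntl held neither, a further window of Tef held 1 E-box, and of the windows of Per1 1 held both motifs and the other neither. A match is only a description of these letters and does not show binding.

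**Figure D2:**
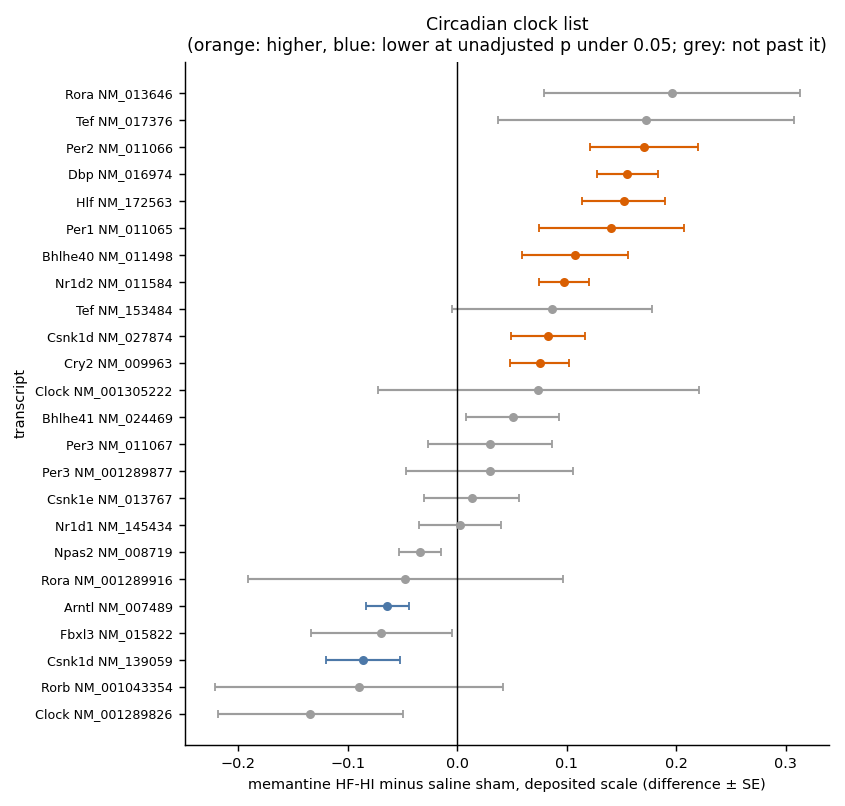
Difference between memantine HF-HI and saline sham (horizontal axis, deposited scale, with SE as bars) for each of the 24 clock transcripts (vertical axis), n = 10 libraries in each group. The 8 orange points passed higher and the 2 blue points lower at an unadjusted p under 0.05, and the 14 grey points did not pass.

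Summing the transcripts of each gene gave a similar number of differences. Of 5849 gene sums, 489 had an unadjusted limma p under 0.05 (8.36%), against 292 by chance. Of these, 237 were higher (4.05%) and 252 lower (4.31%) in memantine HF-HI. At an adjusted p under 0.1, 9 gene sums passed (0.154%), of which 7 were higher and 2 lower. The symbols called at both levels numbered 8, and these were Dbp, Vps13a, Cc2d2a, Tmem245, Pdk1, Nr1d2, Dio2 and Nptx2. Tef was called as a sum alone. Bcl2l1 was called as a transcript alone, and its sum went from 1206 ± 82.4 to 1076 ± 108 (p = 0.00333, adjusted limma p = 0.304). Among the gene sums that fell with the smallest p, Ap2b1, a subunit of the clathrin adaptor at the plasma membrane, went from 8477 ± 239 to 8077 ± 162, with 10 of 10 libraries below the saline sham mean (adjusted limma p = 0.181).

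Of 13 AMPA receptor transcripts, 1 was higher and 3 were lower at the unadjusted threshold (30.8% beside 7.88% over all transcripts), 3 of these 4 from Gria2, and of the 4 gene sums only that of Gria2 passed. Gria1 (NM_008165, chromosome 11, 57011571 to 57330244), the GluA1 subunit, ran from 4687 to 5825 in saline sham (median 5179) and from 4009 to 5758 in memantine HF-HI (median 4740). Its log2 count change was -0.17 (p = 0.0253), and the sum of its 3 transcripts changed by -0.08 (p = 0.0635). Of 7 NMDA receptor transcripts 1 passed (14.3%), Grin1 NM_001177657, of the obligatory subunit, was higher by a log2 count change of 0.40 (p = 0.047, permutation p = 0.0662), while the Grin1 sum went from 5794 ± 350 to 5917 ± 481 (p = 0.531). Grin2a (p = 0.672) and Grin2b (p = 0.486), the subunits that set receptor kinetics, did not pass. Of 12 kainate and metabotropic receptor transcripts 0 passed.

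Of 15 transcripts of the inhibitory GABA receptor subunits, 1 was higher and 2 were lower (20% beside 7.88% over all transcripts). In that list 10 of 15 had a log2 count change above 0, and the median was 0.008. Gabra2, a GABA-A receptor subunit, was lower, at -0.12 (p = 0.00962). Of 74 transcripts of postsynaptic density scaffolds and signalling proteins, 2 were higher and 3 lower (6.76%), among them Dlgap2, a scaffold protein, at -0.28 (p = 0.0107). Of 96 transcripts of presynaptic vesicle release, only Napa, a cofactor that recycles SNARE complexes, passed, at 0.07 (p = 0.0338), or 1.04% of the list beside 7.88% in the table. Among the 59 gene sums of that list 2 were higher and 1 lower (5.08% beside 8.36% over all gene sums).

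Activity-induced genes differed in both directions. Of 22 transcripts, 2 were higher (Junb and Per1) and 3 lower (22.7% beside 7.88% over all transcripts), and the median log2 count change was 0.03. Besides Nptx2, the secreted neuropeptide precursor Vgf (NM_001039385) was lower. It ran from 1121 to 1638 in saline sham (median 1413) and from 1038 to 1432 in memantine HF-HI (median 1163), a log2 count change of -0.24 (p = 0.00501, adjusted limma p = 0.398). Homer1 NM_001284189, of a postsynaptic scaffold, changed by -0.57 (p = 0.0288), but the sum of 4 Homer1 transcripts did not pass (p = 0.419). Junb (NM_008416), an AP-1 subunit, was higher. It ran from 267 to 828 in saline sham (median 486) and from 397 to 890 in memantine HF-HI (median 732), a log2 count change of 0.42 (p = 0.033), with 9 of 10 libraries above the saline sham mean. The immediate early genes Arc, Egr1, Nr4a1 and Dusp6 did not pass, with p from 0.152 to 0.26 and log2 count changes from 0.12 to 0.31. Mean Nr4a1 and Dusp6 were lower in memantine HF-HI than in saline HF-HI at an unadjusted limma p of 0.0417 and 0.0176, and neither passed after adjustment. Junb (p = 0.124), Egr1 (p = 0.387) and both Arc transcripts (p = 0.131 and 0.237) did not pass in that contrast. Over all transcripts 3.91% passed there.

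Among glial genes, Gfap (NM_010277, chromosome 11, 102887336 to 102897200), the intermediate filament of reactive astrocytes, ran from 1034 to 1654 in saline sham (median 1182) and from 1218 to 2070 in memantine HF-HI (median 1540). The log2 count change was 0.36 (p = 0.00193, adjusted limma p = 0.315), and 9 of 10 libraries were above the saline sham mean. Of 39 astrocyte transcripts, Gfap alone was higher and 4 were lower (12.8% beside 7.88% over all transcripts). The lower ones were Dio2, the thyroid hormone and organic anion transporter Slco1c1 (-0.26, p = 0.0152) and the glutamate transporter Slc1a3 NM_148938 (-0.06, p = 0.0346). The last was NM_009657 of the glycolytic enzyme Aldoc (-0.20, p = 0.0478), while the Aldoc sum changed by 0.001 (limma p = 0.955). In whole cortex, fewer cells of a type and less RNA per cell cannot be told apart. The summed count of 7 astrocyte markers ran from 107378 to 123824 in saline sham and from 110312 to 120119 in memantine HF-HI.

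C4b (NM_009780, chromosome 17, 34728139 to 34743902), complement component C4, ran from 479 to 692 in saline sham (median 546) and from 557 to 878 in memantine HF-HI (median 654). It had a log2 count change of 0.28 and an adjusted limma p of 0.145, and 10 of 10 libraries were above the saline sham mean. Its mean was 550 in untreated sham mice, 693 after impact alone, 478 with the drug alone and 667 with both, so both impact groups were above both sham groups. It was the only 1 of 9 microglia and complement transcripts to pass (11.1% beside 7.88% over all transcripts). All 9 had log2 count changes above 0, with a median of 0.065. C1qa, a complement gene of microglia, ran from 464 to 627 in saline sham and from 497 to 735 in memantine HF-HI (p = 0.111). Of 36 oligodendrocyte and myelin transcripts 2 were higher (5.56%), Tspan2 (0.23, p = 0.0162) and 1 of 6 Mbp transcripts (0.12, p = 0.0246), and the Mbp sum did not pass (p = 0.995).

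Of 15 transcripts of vessel cells, 2 were higher and 1 lower (20% beside 7.88% over all transcripts), while 10 of 15 had a log2 count change below 0 and the median was -0.04. The endothelial clotting factor Vwf (0.32, p = 0.0104) and the monocarboxylate transporter Slc16a1 (0.14, p = 0.0181) were higher and the basement membrane collagen Col4a2 was lower (-0.13, p = 0.0253). The sum of 2 transcripts of its partner Col4a1 was also lower, by -0.21 (p = 0.00141). Of 31 matrix transcripts, 3 were higher and 1, again Col4a2, was lower (12.9% beside 7.88%), while 19 of 31 had a log2 count change below 0 and the median was -0.01. The fibril-associated collagen Col12a1 (0.33, p = 0.00152) and the fibrillar collagen Col5a1 (0.25, p = 0.0163) were higher, as was Hapln4, a link protein of perineuronal nets (0.14, p = 0.0364). The sum of Reln, a secreted guidance protein of some interneurons, was lower by -0.15 (p = 0.00128). Mean Slc16a1 was 696 in untreated sham mice, 846 after impact alone, 731 with the drug alone and 767 with both, and it was lower in memantine HF-HI than in saline HF-HI at an unadjusted p of 0.012.

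Of 51 heat shock and chaperone transcripts 0 were higher and 6 lower, and 44 of 51 had a log2 count change below 0. The 6 were Pdia6, Hspa5 NM_001163434, Hyou1 and Calr, which fold proteins in the endoplasmic reticulum, and the cytosolic Cct7 and Hspa4. The sum of both Hspa5 transcripts, of the main endoplasmic reticulum chaperone, went from 5409 ± 551 to 4726 ± 635 (log2 count change of -0.19, p = 0.00144, adjusted limma p = 0.22). The list as a whole had 11.8% of its transcripts past the threshold, beside 7.88% in the table, with a median log2 count change of -0.04. Of 25 transcripts of cholesterol synthesis 0 were higher and 3 lower (12.0% beside 7.88%), and these were Fdps (-0.12, p = 0.0367), Hmgcs1 (-0.15, p = 0.0415) and Fdft1 (-0.10, p = 0.0469), 3 enzymes of the pathway.

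Of 31 transcripts of glucose and lactate handling 5 passed (16.1% beside 7.88% over all transcripts). Pdk1, the hexokinase gene Hk1 (0.13, p = 0.00528) and Slc16a1 were higher, and Ldha (-0.12, p = 0.00514) and Aldoc NM_009657 were lower. The Aldoc sum did not pass (limma p = 0.955). Of 17 glucocorticoid-responsive transcripts 4 passed (23.5% beside 7.88% over all transcripts). Higher were Per1 and the receptors Nr3c2 (0.11, p = 0.00144) and Nr3c1 (0.11, p = 0.00311), and Gpd1 was lower (-0.13, p = 0.017). Per1 was also counted in the clock and activity-induced lists, so the counts of these lists are not independent. The median of that list was -0.02. Of 25 transcripts of amino acid stress 2 passed (8%, near the share in the table), and the transporters Slc38a2 (0.16, p = 0.00122) and Slc7a11 (0.10, p = 0.027) were higher. Of 80 ribosomal protein transcripts only Rps16 passed (1.25% of the list, -0.21, p = 0.00136), and reads of such genes can be shared with near-identical copies elsewhere in the genome. Of 70 transcripts of oxidative phosphorylation only Ndufb6 passed (1.43% of the list, -0.11, p = 0.03).

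Markers of cortical layers held 3 passing transcripts, and those of neighbouring regions 0. Of 27 cortical layer transcripts 11.1% were past the threshold, beside 7.88% over all transcripts. Kcnip4 NM_001199242 was higher (0.28, p = 0.00824), and Pcp4 (-0.15, p = 0.0337) and Calb1 (-0.09, p = 0.0443) were lower. Of 12 thalamic, 4 hippocampal and 3 choroid plexus transcripts 0 passed in limma at an unadjusted p under 0.05. The hippocampal transcripts include Neurod6, used above as a cortical marker, so they are not specific to the hippocampus. Of the 14 symbols listed for blood and choroid plexus only 2, Ttr and Enpp2, were in the table. The blood markers Hbb-bs, Hba-a1 and Alas2 were absent, so blood could not be assessed.

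**Figure D3:**
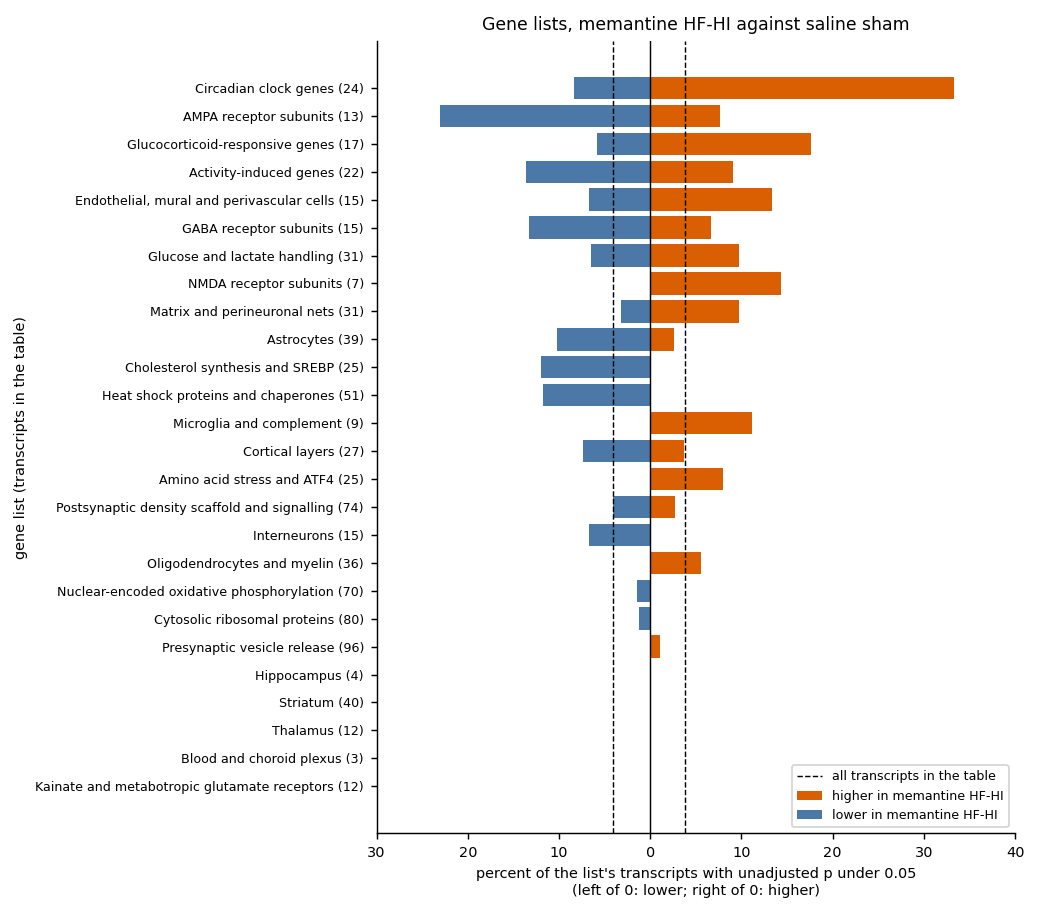
Percent of the transcripts of each of 26 gene lists (vertical axis, with the number of transcripts) that had an unadjusted p under 0.05 in memantine HF-HI against saline sham (horizontal axis), with higher transcripts to the right and lower ones to the left. The dashed lines are the shares over all transcripts, 3.81% higher and 4.07% lower, and the clock list reaches furthest to the right with 8 of 24.

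The remaining transcripts with the smallest p in each direction did not pass after adjustment. Igfbp5, a secreted binding protein of insulin-like growth factors, ran from 1948 to 2530 in saline sham (median 2432) and from 2428 to 3384 in memantine HF-HI (median 2790), a log2 count change of 0.29 (adjusted limma p = 0.145), with 10 of 10 libraries above the saline sham mean. The lysosomal mannosidase Man2b1 changed by 0.12 (adjusted limma p = 0.238). On the falling side stood Tspyl5, Sgsm1, Rap2b, Arf2 and Sorcs3, with log2 count changes from -0.11 to -0.23 and adjusted limma p from 0.189 to 0.284, each below the saline sham mean in 10 of 10 memantine HF-HI libraries. Rap2b and Arf2 are small GTPases and Sorcs3 is a sorting receptor of neurons. Fnbp1l NM_153118 and Mapre2 NM_001162942 had log2 count changes of -0.66 and -0.59, but the sums of their genes changed by -0.04 (p = 0.457) and 0.01 (p = 0.792).

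Of the 538 transcripts at the unadjusted threshold, 426 were the only transcript of their gene in the table and 112 had another. The share called was 8.26% of the first kind and 6.69% of the second. For the 112, the gene sum passed in the same direction in 22 cases, in the opposite direction in 1 and did not pass in 89, of which 26 had the opposite sign. Of the 26 called transcripts with an absolute log2 count change over 0.5, 23 were in genes with several transcripts. The 3 others, named after their values were seen, were Galnt1 (-0.83), Sybu (-0.53) and Pip5k1a (-0.50). Among called transcripts that were the only one of their gene in the table, the median absolute log2 count change was 0.10. The largest rises were in Dgkz NM_001166597 (2.84), Wnk1 NM_001185021 (1.59) and NM_001199084 (1.08), Myo18a NM_001291212 (0.62) and Sgip1 NM_001285862 (0.57), and the largest falls in Cnot6l NM_144910 (-1.03), Epb41l1 NM_001291123 (-1.01), Sptan1 NM_001177668 (-0.99), Wnk1 NM_001185020 (-0.90) and Abl2 NM_001136104 (-0.88). Of these 10 transcripts only that of Abl2, a tyrosine kinase, lay in a gene whose sum passed, at -0.09 (p = 0.00317). Pdzd2, a PDZ-domain protein with 1 transcript in the table, went from a mean of 2963 to 2597, a log2 count change of -0.19 (p = 0.00445), with 9 of 10 libraries below the saline sham mean.

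**Figure D4:**
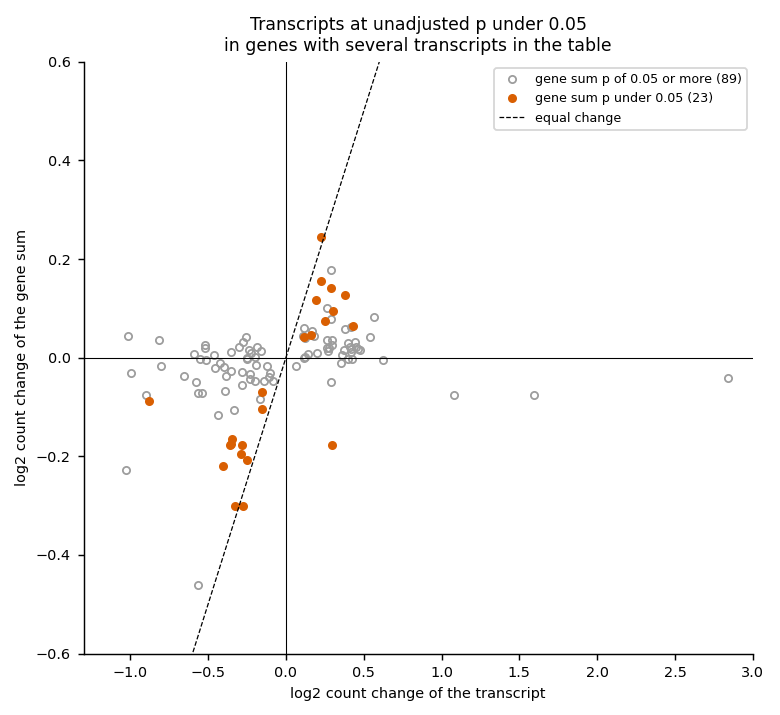
Log2 count change of the 112 called transcripts in genes with several transcripts (horizontal axis) against the change of the sum over the gene (vertical axis, on a finer scale), memantine HF-HI against saline sham. Filled points are the 23 whose gene sum had p under 0.05, open points the 89 whose sum did not, and the dashed line marks equal change.

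Tested directly as the share of a transcript in its gene, 105 of 1674 transcripts had an unadjusted limma p under 0.05 (6.27%), and 0 had an adjusted p under 0.1, with 0.345 as the smallest. The shares with the smallest p were in Agap3, an Arf GTPase-activating protein of the NMDA receptor complex. Its transcript NM_001256431 made up 38.9% ± 10.3 of the sum in saline sham and 50.9% ± 5.45 in memantine HF-HI (SD, n = 10 each, p = 0.00059). The Agap3 sum went from 1554 ± 147 to 1577 ± 155. In Mapre2, a microtubule-binding protein, NM_001162942 went from 22.1% ± 4.56 to 14.5% ± 4.27, and in Myo18a, an unconventional myosin, NM_001291212 went from 32.1% ± 10.1 to 49.0% ± 13.6.

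Wnk1, a kinase that regulates ion cotransport, had 4 transcripts in the table. NM_001185020 went from 3268 ± 767 to 1754 ± 1158 (p = 0.00164), while NM_001185021 went from 472 ± 295 to 1424 ± 1125 (p = 0.00685) and NM_001199084 from 708 ± 196 to 1497 ± 720 (p = 0.0245). The fourth, NM_198703, went from 2886 ± 417 to 2285 ± 1014 (p = 0.0899). The sum of the 4 went from 7334 ± 473 to 6960 ± 860, a log2 count change of -0.08 (p = 0.318). The SD of the shares grew from 8.23 to 14.7 percentage points for NM_001185020 and from 4.24 to 15.3 for NM_001185021. In saline HF-HI they were 16.3 and 13.1 percentage points and in memantine sham 12.7 and 11.1, so the untreated sham group had the lowest spread of the 4, and the difference in spread was not tested.

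Gria2, which encodes the GluA2 subunit that keeps AMPA receptors from passing calcium, had its 3 transcripts past the threshold in 2 directions. NM_001039195 ran from 3602 to 5293 in saline sham (median 4428) and from 4502 to 6479 in memantine HF-HI (median 5048). NM_001083806 went from 9316 ± 780 to 7250 ± 2567 and NM_013540 from 8402 ± 955 to 6908 ± 1821. The share of NM_001039195 was 16.6% to 23.3% in saline sham. In memantine HF-HI 4 libraries had shares of 38.9% to 43.3% and the other 6 had 19.7% to 22.5%, with no library between. Shares over 30% were also found in 1 of 10 saline HF-HI and 3 of 10 memantine sham libraries. The sum of Gria2 ran from 21006 to 22979 in saline sham and from 14321 to 22942 in memantine HF-HI, a log2 count change of -0.18 (p = 0.0231, adjusted limma p = 0.519), with 6 of 10 libraries below the saline sham mean. Replicates 2, 3, 8 and 9, the libraries with shares over 30%, had Gria2 sums of 15800, 14321, 16466 and 16178, and the sums of the other 6 ran from 20556 to 22942.

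Dgkz, a diacylglycerol kinase, and Sptan1, the alpha chain of brain spectrin, had the same kind of gap. Dgkz NM_001166597 was between 71.1 and 543 counts in saline sham, while in memantine HF-HI 4 libraries had 1912 to 3922 and the other 6 had 75.5 to 269. Counts over 1000 were found in 0 of 10 untreated sham libraries, 1 of 10 after impact alone, 4 of 10 with the drug alone and 4 of 10 with both. Its mean went from 191 to 1369 (p = 0.0364), while the Dgkz sum went from 5184 ± 560 to 5039 ± 537 (p = 0.548). Sptan1 NM_001177668 was over 10000 in 3 of the untreated sham libraries, 2 after impact alone, 1 with the drug alone and 0 with both, and the Sptan1 sum went from 36860 ± 1131 to 36086 ± 897 (p = 0.0865). The gaps were chosen after the values were seen, and no test is given. Reads of such transcripts are divided by estimation, and the part of that step in these values was not tested.

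**Figure D5:**
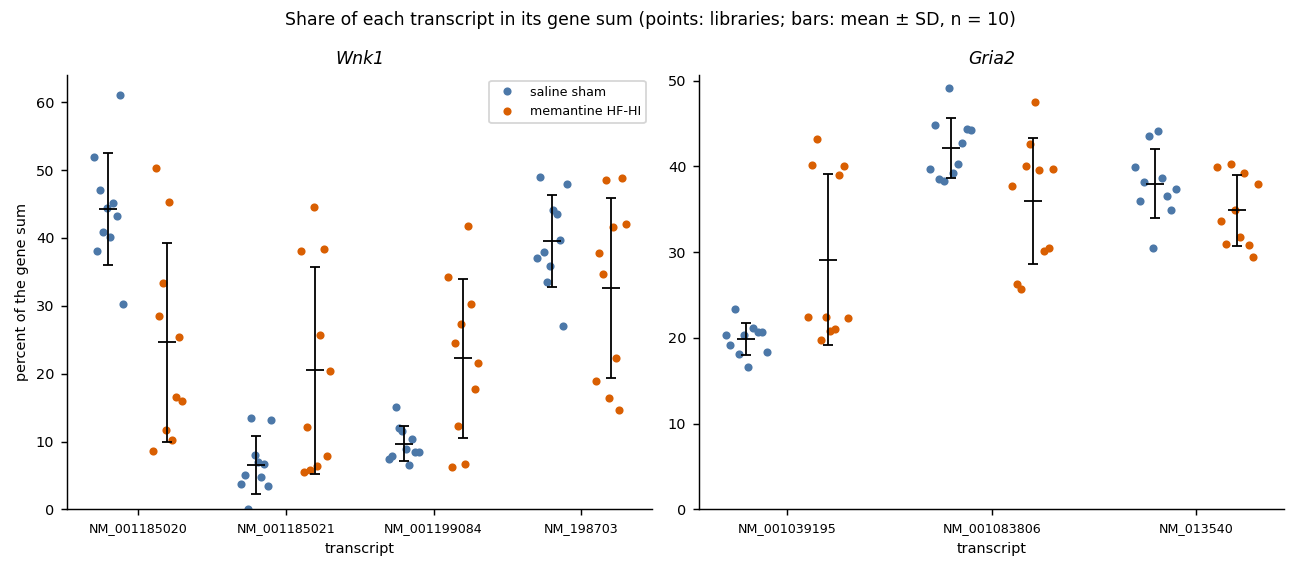
Share of each transcript in the sum of its gene (vertical axis, percent, from 0) for the 4 Wnk1 and 3 Gria2 transcripts (horizontal axis) in saline sham and memantine HF-HI. Points are libraries and bars are the mean ± SD with n = 10. The 4 memantine HF-HI libraries at 38.9% to 43.3% of Gria2 NM_001039195 stand apart from the other 6.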

How the data were processed

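Ribosome-depleted, stranded cortex RNA was sequenced. According to the study's methods the reads were aligned with STAR and assigned to RefSeq transcripts with eXpress on mm10, while the submitters' processing notes name HISAT2 and StringTie. The deposited table holds log2-scale values from the authors' variance-stabilising transformation in DESeq2, for 6831 transcripts, none of which averaged under 549 normalised counts. Undoing the transformation gave normalised counts that were whole reads divided by a size factor in 100% of values under 5000 counts (tolerance 0.05). Size factors ran from 0.859 to 1.14. Because of the transformation, a difference on the deposited scale is 0.308 of a log2 count change at the lowest mean and 0.81 at a count of 10000.

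Groups came from the labels. limma 3.58.1 in R 4.3.3 was fitted to the deposited values of all 40 libraries with 1 mean per group and a trended variance prior, with Benjamini-Hochberg adjustment over all transcripts, gene sums or shares. A gene sum adds the normalised counts of the gene's transcripts in the table, so transcripts not in the table are left out. A share was tested as the log2 ratio of a transcript to the others of its gene in the table. Permutation tests used 100000 resamples, two-sided unless stated. The scripts were tested on simulated data. Named transcripts were the 10 with the smallest p in each direction, the 5 largest rises and falls at p under 0.05, the 5 gene sums with the smallest p in each direction, 27 symbols of interest, up to 2 per gene list and the 3 shares with the smallest p in each direction. The libraries were taken by their labels, but the comparison, its members and the gene lists were chosen with earlier results of these data known. Ciart was not analysed here, and some genes of the lists are not reported here. The labels do not say that the libraries are from separate mice, nor give a batch, and p-values measure the spread between these libraries. Replicate numbers did not pair libraries: over 10 numbers the correlation of deviations between both groups ran from -0.0937 to 0.0908.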

Additional observations from a re-analysis of the deposited data

Results flagged for a closer look

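Of 208 sets of 10 library values of the named transcripts, 12 held a library far from the other 9 by Dixon's ratio, where chance gives 10.4, and 8 of the 12 were in genes with several transcripts. C4b stood high in saline sham replicate 7 (692 normalised counts) and in memantine HF-HI replicate 7 (878). In memantine HF-HI, Per2 was low in replicate 1 (1034), as was Arc NM_018790 in the same library (930), and Arf2 was low in replicate 9 (564). Also in memantine HF-HI, Epb41l1 NM_001291123 was high in replicate 10 (593) and Gria1 NM_001252403 was low in replicate 8 (247). In saline sham, Dgkz NM_001166597 was high in replicate 7 (543), Grin1 NM_001177657 in replicate 3 (1918), Enpp2 NM_001285994 in replicate 3 (2476) and Rora NM_013646 in replicate 6 (3148), and Mbp NM_001025245 was low in replicate 2 (1679).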

How the results depend on the processing

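Among the 69 named transcripts with an unadjusted p under 0.05, 2198 of 2321 comparisons with an alternative stayed past that threshold, 123 did not and 0 changed sign. Of the 9 transcripts with an adjusted limma p under 0.1, Dbp, Vps13a and Dio2 passed in 34 of 34 alternatives. Nr1d2 passed in 17 of 34 and Bcl2l1 in 13 of 33. With the striatal marker mean as a covariate, Nr1d2 and Bcl2l1 each had an adjusted limma p of 0.146. With the replicate number as a block these were 0.209 for Nr1d2 and 0.262 for Bcl2l1. With a mean count of at least 1000, 337 transcripts and 317 gene sums had an unadjusted p under 0.05, and at an unadjusted p under 0.01 there were 139 and 133. With the first residual component as a covariate, 17 transcripts and 35 gene sums had an adjusted p under 0.1, and with only the 20 libraries of both groups there were 4 and 4. The cause was not tested. Leaving out 1 library gave 462 to 594 transcripts and 401 to 542 gene sums at the unadjusted threshold. At the adjusted one it gave 4 to 12 transcripts (4 without saline sham replicate 2, 5 without replicate 3 or 6 or memantine HF-HI replicate 4) and 7 to 19 gene sums (19 without saline sham replicate 7, 15 without memantine HF-HI replicate 5), and for shares 0 to 0. The excess distance between the groups changed sign to -0.104 on the scale of log2 count plus 1 (permutation p = 0.596), and ran from -0.0161 to 0.103 when 1 library was left out, with -0.00277 without memantine HF-HI replicate 2, -0.00217 without replicate 10 and -0.0161 without saline sham replicate 10. On transcripts of genes with 1 transcript in the table, an alternative chosen after seeing the data, it was 0.00413. With the replicate number as a block, 530 transcripts had an unadjusted and 8 an adjusted p under the thresholds, 489 and 13 gene sums, and 0 shares, and 1 of 10 memantine HF-HI libraries correlated best with its own number.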
